A study of Rattus norvegicus with 320 samples.

Results

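The miR-23, miR-27 and miR-24 microRNAs are made from 2 genomic clusters, called a and b, and their 5 mature 3p strands were followed across rat organs and ages. The 5 were taken by name from the count table, as rno-miR-23a-3p and rno-miR-27a-3p of the a cluster, rno-miR-23b-3p and rno-miR-27b-3p of the b cluster, and rno-miR-24-3p, which is identical in both (rno, for rat, is left out from here on). The table holds 604 miRNAs of miRBase, the 5 among them, and 12 candidates. The rule used their names alone. The samples were small RNA libraries from adrenal gland, brain, heart, kidney, liver, lung, skeletal muscle, spleen, thymus, testis and uterus of Fischer 344 rats aged 2, 6, 21 or 104 weeks. Each organ, sex and age was represented by 4 rats, testis by males and uterus by females only, which gave 320 libraries in 80 groups, and each of the 32 rats supplied 10 organs. The rats were housed in pairs, and the labels name no treatment or engineered allele. RNA came from ground organ tissue, so each value is an average over the cell types in that tissue. The library labelled replicate 3 of the male brain at week 6 and the library labelled replicate 4 of the female spleen at week 104, both removed in the study, were left out of all comparisons.

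A miRNA is cut from a hairpin in a longer transcript, and its seed, the bases near its 5′ end, pairs with messenger RNAs and lowers their stability and translation. miRNAs that share a seed can pair with the same targets, and miRNAs of one cluster usually come from one primary transcript. The clusters are known from endothelial cells, heart muscle and lymphocytes. miR-23 is known to repress glutaminase, miR-27 the adipocyte regulator PPARγ, and miR-24 several regulators of the cell cycle.

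The sequences below show how closely the a and b copies resemble each other, which bears on how their reads can be told apart. Capitals mark the seed, bases 2 to 8 counted from the 5′ end, and the sequences and positions are those of RefSeq on the GRCr8 build.
miR-23a-3p: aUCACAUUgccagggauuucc
miR-23b-3p: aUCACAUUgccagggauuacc
miR-27a-3p: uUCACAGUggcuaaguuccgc
miR-27b-3p: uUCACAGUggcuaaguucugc
miR-24-3p: uGGCUCAGuucagcaggaacag
Within the table each of the first 2 seeds occurred in exactly 2 miRNAs, the a and b copies, and the miR-24-3p seed in 1. The miR-23 copies differed at 1 base, U19A from miR-23a-3p to miR-23b-3p, and the miR-27 copies also at 1 base, C19U from miR-27a-3p to miR-27b-3p, with positions counted from 1 at the 5′ end. The authors kept reads down to 16 bases and allowed a mismatch in the alignment. A read that ends before base 19, or has an error there, cannot be assigned to 1 copy. With 1 mismatch allowed, a full read of 1 copy without errors can also align to the other. Whether only the best alignment was kept, and how reads that fit both copies were divided, is not given in the sources used here. All levels of the a and b copies below carry this uncertainty.

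The a cluster lies on the minus strand of chr19:40859455-40859843, a span of 389 bases in which Mir23a, Mir27a and Mir24-2 follow each other, and no other gene is listed there. The b cluster lies on the minus strand of chr17:1818669-1819482, 814 bases long, within the protein-coding gene Aopep, and Mir24-1 at its end also overlaps Fancc and, on the opposite strand, Mir3074. The mature miR-24-3p has the same sequence at chr17:1818672-1818693 and at chr19:40859481-40859502, so its counts cannot be divided between the clusters. Their opposite strands can be divided, since miR-24-2-5p of the a cluster and miR-24-1-5p of the b cluster differ at 5 bases, which are in capitals here.
miR-24-2-5p: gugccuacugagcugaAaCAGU
miR-24-1-5p: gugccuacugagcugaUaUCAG
Of the opposite strands, miR-24-2-5p had a mean count of 845 per library, miR-27b-5p 69.9, miR-24-1-5p 43.5 and miR-27a-5p 18.6. miR-23b-5p was at 3 counts or fewer in 301 libraries and is not described further, and miR-23a-5p was not analysed here.

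Total counts ran from 315550 to 10571766 per library with a median of 2848160, organ medians ran from 1040989 (liver) to 6436572 (uterus), and every library held at least 161 counts of each of the 5 members. Levels are given as counts scaled to an equal library total of 1e+06 (CPM), and since each of the 5 members is 21 or 22 bases long, no length correction was made. The labelled organs carried their defining miRNAs, for example a median of 56620 CPM for the 3 neuron miRNAs in brain and 30965 CPM for both strands of the hepatocyte miRNA miR-122 in liver, against medians of at most 184 and 31.9 CPM in any other organ. Single libraries went higher, with up to 435 CPM of miR-122 among the adrenal glands of week 21. Replicate 1 of the male thymus at week 104 stood apart with 14713 CPM of the 2 thymocyte miRNAs, where the 8 old thymus libraries had a median of 71096 and young thymus 416380 CPM. Replicate 1 of the male adrenal gland at week 21 stood apart in the members themselves, with 181 CPM of miR-23a-3p against 723 to 1344 CPM in the other 7 libraries of that age. Replicate 4 of the female brain at week 104 had a low share of miRNA reads in the study's own read table. Results that these libraries touch are given without them where they changed. In the study, testis libraries of adolescent and adult rats, the 2 middle ages, were dominated by piRNA, another class of small RNA. It names no younger or older testes among these exceptions. Testis changes into or out of the middle ages therefore also cross a change in library make-up, whose part was not tested. The study describes the RNA of the week 2 spleens as less intact than that of most other samples, and names no older spleens among the exceptions. RNA quality and age therefore cannot be told apart in spleen changes from week 2. All such changes below carry this limit, and its part was not tested.

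Together the 5 members made up 4.86 ± 0.43% (SD, n = 32) of all miRNA counts in heart and 4.55 ± 0.47% (SD, n = 32) in lung. The lowest shares were in thymus, 1.56 ± 0.55% (SD, n = 32), and testis, 1.56 ± 0.72% (SD, n = 16). miR-27b-3p supplied most of these counts. It had a mean of 21107 CPM over all libraries and ranked 7th to 21st by organ mean among all miRNAs of the table, and the other 4 averaged 1082 CPM (miR-23a-3p), 1430 CPM (miR-23b-3p), 1595 CPM (miR-24-3p) and 1699 CPM (miR-27a-3p). Differences in level between miRNAs also carry the unequal ligation and amplification of different sequences, which was not measured here.

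**Figure D1:**
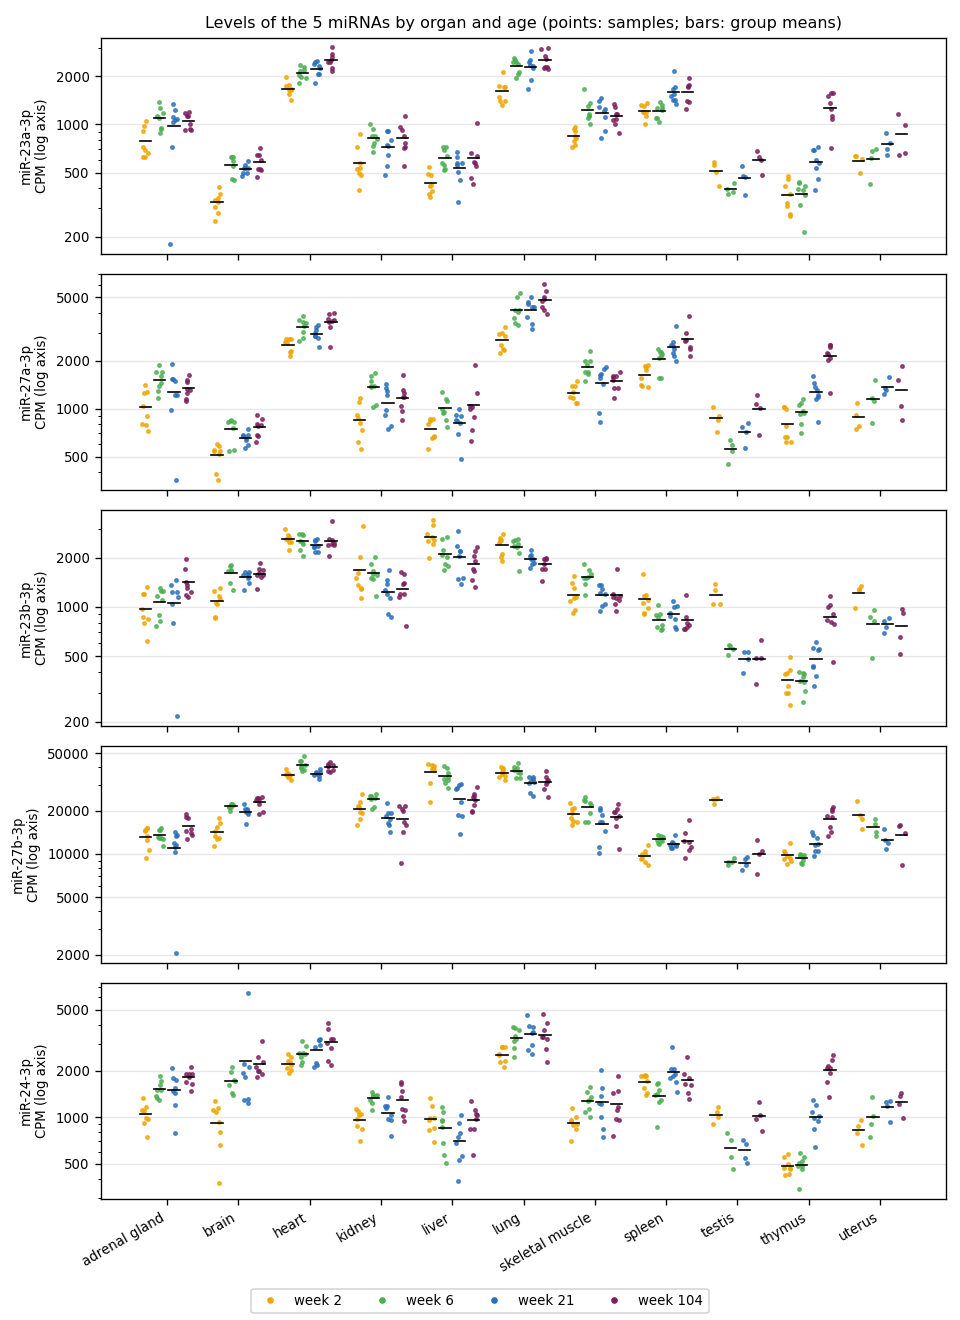
Level of the 5 members (CPM, log axis) in each organ, with 1 point per library, the 4 ages in 4 colours side by side, and a bar at the mean of each age. miR-27b-3p lay above the other members in all organs, the highest organ mean of each member was in lung or heart, and the low adrenal point is replicate 1 of the male adrenal gland at week 21.

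Among organs, the 2 a-cluster members and miR-24-3p were highest in lung and the 2 b-cluster members in heart. miR-23a-3p, of the a cluster, averaged 2181 ± 453 CPM in lung (SD, n = 32) and 493 CPM in testis, a 4.43-fold range. miR-27a-3p averaged 3954 ± 994 CPM in lung (SD, n = 32) and 665 ± 138 CPM in brain (SD, n = 31), a 5.95-fold range. Lung and heart libraries did not overlap with brain libraries for either miRNA.

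miR-23b-3p, of the b cluster, averaged 2500 ± 268 CPM in heart (SD, n = 32) and 516 CPM in thymus, a 4.84-fold range. miR-27b-3p averaged 38214 ± 3538 CPM in heart (SD, n = 32) and 11596 CPM in spleen, a 3.30-fold range. In liver the miR-23 copies parted, with miR-23b-3p at 2155 ± 519 CPM (SD, n = 32), among the 3 highest organ means, and miR-23a-3p at 550 ± 138 CPM (SD, n = 32), among the 3 lowest. miR-24-3p ran from 3185 ± 664 CPM in lung (SD, n = 32) to 825 CPM in testis, a 3.86-fold range. The median range over the 5 members was 4.42-fold with 1 CPM added, against 17.4-fold over all miRNAs and 16.3-fold over the 67 miRNAs at least as abundant as the least abundant member.

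Organs were compared in pairs at each age with edgeR's quasi-likelihood test, with TMM scaling, and a miRNA was called where it differed by at least 1.5-fold with a Benjamini-Hochberg adjusted p under 0.05. Of the 275 combinations of a member and an organ pair, 175 were called at week 2, 207 at week 6, 191 at week 21 and 169 at week 104. These are 63.6%, 75.3%, 69.5% and 61.5% of the combinations, where 62.1%, 60.3%, 58.9% and 54.1% were called over all miRNAs, so that the members differed between organs about as often as other miRNAs at week 2. TMM scaling sets libraries level by the middle of their miRNAs, and scaling by total counts moved the difference of an organ pair by up to 2.16 on the log2 scale. Called in the same direction under both scalings were 131, 166, 134 and 91 combinations at the 4 ages, and opposite calls were made for 0, 4, 7 and 10.

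Under both scalings, lung exceeded 9 of the 10 other organs in miR-27a-3p and in miR-24-3p at weeks 2, 6 and 21, and 8 and 6 organs at week 104. Heart exceeded 7, 9, 7 and 7 of the other organs in miR-23a-3p at the 4 ages, and 4, 8, 7 and 7 in miR-27b-3p. Brain was below 9, 7, 8 and 8 of the other organs in miR-27a-3p while for miR-27b-3p it was below 4, 3, 2 and 1. Thymus was below 9, 9, 8 and 4 of the other organs in miR-23b-3p.

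In the order of week 21 levels, most neighbours did not differ when scaled by total counts. For miR-27b-3p the order ran from heart (35984 ± 1783 CPM, SD, n = 8) over lung, liver, brain, kidney, skeletal muscle, uterus, thymus, spleen and adrenal gland to testis (8685 ± 776 CPM, SD, n = 4), and in the fit on total counts only lung and liver differed among the 10 neighbouring pairs (edgeR adjusted p = 0.0250). Of 10 such pairs on total counts 2 differed for miR-23a-3p, 3 for miR-27a-3p, 2 for miR-23b-3p and 1 for miR-24-3p. With TMM other neighbours differed. For miR-27b-3p the log2 difference was 1.52 from liver to brain and -1.51 from brain to kidney (edgeR with TMM, adjusted p = 6.7e-14 and 7.8e-14). Lung and liver then did not differ (edgeR with TMM, adjusted p = 0.713). The order and its gaps thus depend on the scaling.

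**Figure D2:**
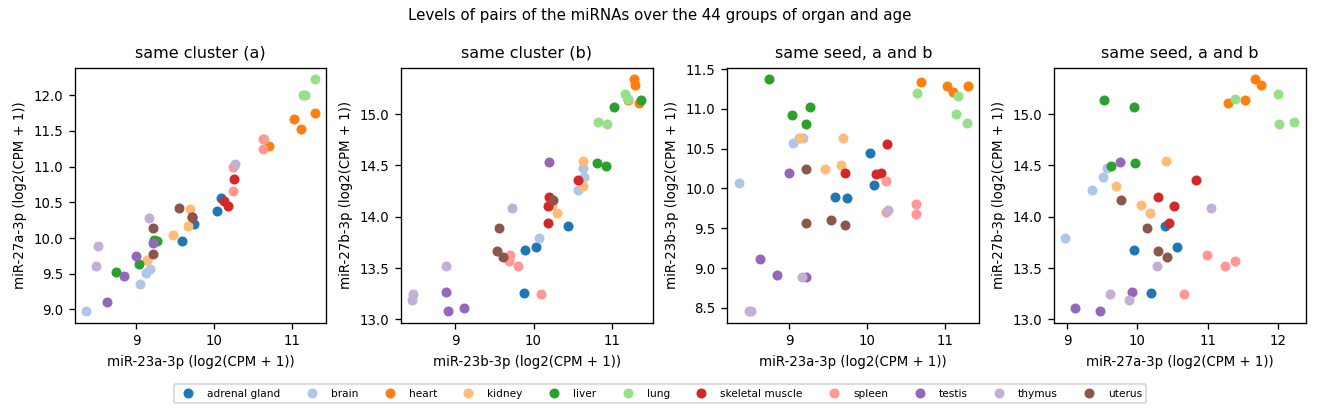
Mean log2(CPM + 1) of 2 members plotted against each other, with 1 point for each of the 44 groups of organ and age and 1 colour per organ. Points lie close to a line for members of the same cluster (r of 0.96 and 0.91) and scatter widely for the a and b copies with the same seed (r of 0.50 and 0.46), with liver and spleen on opposite sides.

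Members of 1 cluster moved together over organs and ages. Over the means of log2(CPM + 1) in 44 groups of organ and age, Pearson's r was 0.96 between miR-23a-3p and miR-27a-3p and 0.91 between miR-23b-3p and miR-27b-3p. Between copies with the same seed it was 0.50 for miR-23 and 0.46 for miR-27. miR-24-3p, made from both clusters, had an r of 0.85 with miR-23a-3p and 0.79 with miR-27a-3p, and of 0.62 with miR-23b-3p and 0.57 with miR-27b-3p. The opposite strand that belongs to the a cluster alone, miR-24-2-5p, had an r of 0.93 with miR-23a-3p and supplied 95.1% of the counts of both miR-24 opposite strands, and miR-24-1-5p had an r of 0.64 with miR-23b-3p. These values describe 44 points that share libraries, totals and organs, and no test was made.

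The miRNAs most like the members in this pattern were both strands of miR-126a, the defining miRNA of endothelial cells. miR-126a-3p had an r of 0.81 with miR-23a-3p, 0.80 with miR-27a-3p and 0.79 with miR-24-3p, and miR-126a-5p of 0.77 with miR-23b-3p and 0.75 with miR-27b-3p, over the same 44 groups. Next in likeness came the red cell miRNA miR-451-5p for miR-23a-3p (0.60), the myeloid miR-223-3p for miR-27a-3p (0.63), miR-22-3p for miR-23b-3p (0.70) and miR-27b-3p (0.62), and miR-26a-5p for miR-24-3p (0.64). The sums of endothelial, red cell, striated muscle, germ cell and thymocyte miRNAs had the same sign for all 5 members. For the thymocyte sum r ran only from -0.31 for miR-23b-3p to -0.004 for miR-24-3p, so its shared sign carries little. The miRNAs of that list are not confined to thymus, with 107381 CPM in replicate 4 of the female brain at week 104. For the endothelial sum r ran from 0.72 to 0.77. Stroma, epithelium and pancreas sums were mixed within the b cluster. The leukocyte, hepatocyte and neuron sums had opposite signs for the clusters, with smaller r than the endothelial sum. The sum of 5 leukocyte miRNAs had an r of 0.20 for miR-23a-3p and 0.36 for miR-27a-3p against -0.30 for miR-23b-3p and -0.20 for miR-27b-3p. The hepatocyte sum had an r of -0.27 for both a-cluster members against 0.35 and 0.28 for miR-23b-3p and miR-27b-3p, and the neuron sum of -0.27 and -0.38 for miR-23a-3p and miR-27a-3p against 0.15 and 0.08. In such bulk samples, fewer cells of a type and less of a miRNA per cell cannot be told apart.

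To compare the clusters without any scaling between libraries, the share of the a cluster, miR-23a-3p plus miR-27a-3p as a percent of these and miR-23b-3p plus miR-27b-3p, was taken within each library. At week 21 this share was highest in spleen, 24.2 ± 3.1% (SD, n = 8), followed by lung (16.3%), adrenal gland (16.0%), uterus (13.7%), skeletal muscle (13.3%), thymus (13.0%), heart (11.9%), testis (11.4%), kidney (8.58%), brain (5.32%) and liver (5.04 ± 0.68%, SD, n = 8). Among neighbours in this order, spleen differed from lung and kidney from brain (exact permutation test of the log2 ratio, adjusted p = 0.000491 each), adrenal gland from uterus (exact permutation test, adjusted p = 0.0381) and testis from kidney (exact permutation test, adjusted p = 0.00696). The other 6 neighbouring pairs, such as lung and adrenal gland or brain and liver, did not differ beyond their spread.

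Over the 4 ages, 181 of the 220 organ pairs differed in this ratio, adjusted over all 1320 ratio tests, of which 938 passed. Since the organs came from the same rats, the ratios were also compared within replicate numbers as a block, and then 564 of 1284 tests passed. In that comparison pairs with testis or uterus have at most 4 differences and cannot pass. No source used here says that equal numbers name the same rat. The lower count thus does not measure the effect of shared rats. The ratio of miR-23a-3p to miR-23b-3p differed in 189 of 220 pairs and that of miR-27a-3p to miR-27b-3p in 174, and the group means of these 2 ratios had an r of 0.96 over the 44 groups. The opposite strands of miR-24, whose copies differ at 5 bases from base 17 on, differed in 153 of 220 pairs, and the r of their ratio with the a to b ratio was 0.82. Within a cluster the ratio varied less often, in 125 of 220 pairs for miR-27a-3p over miR-23a-3p and in 116 for miR-27b-3p over miR-23b-3p, and the difference between these counts was not tested.

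From week 2 to week 104 the share of the a cluster rose in 9 of 11 organs. Of the 66 tests of 6 ratios in 11 organs, 41 passed an adjusted p of 0.05. Testis had the steepest rise, 1.46 on the log2 scale. The 4 testis libraries of week 2 had shares of 5.46, 4.32, 5.85 and 5.38%, and the 4 of week 104 had 13.3, 14.8, 13.3 and 11.4%. The groups did not overlap, and p was 0.0286 in the exact permutation test, the smallest that 4 against 4 allows (adjusted p = 0.0460). The testis shares at weeks 6 and 21 lay between, with means of 9.17% and 11.4%.

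Lung rose from a lowest, median and highest share of 7.87, 10.01 and 11.9% at week 2 to 16.3, 18.7 and 19.1% at week 104, with no overlap and a log2 change of 1.00 (exact permutation test, adjusted p = 0.000789, n = 8 and 8). Kidney rose from 5.13, 6.17 and 7.10% to 7.91, 9.89 and 12.9%, again with no overlap and a log2 change of 0.78 (exact permutation test, adjusted p = 0.000789, n = 8 and 8). Uterus rose from 8.74, 6.87, 6.57 and 5.98% in its 4 young libraries to 14.5, 10.4, 15.1 and 13.2% in its 4 old ones, a log2 change of 1.02 (exact permutation test, adjusted p = 0.0460). In testis, lung, kidney and uterus every old library thus lay above every young one.

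Liver had the lowest mean share over all ages and rose from 2.41, 2.92 and 3.80% to 3.66, 5.90 and 9.88%, a log2 change of 1.07 (exact permutation test, adjusted p = 0.00128, n = 8 and 8). The old livers spread widely, and the library with the highest share, replicate 1 of the old females, also held the highest sum of the leukocyte miRNAs, 12360 CPM, where the old livers had a median of 4251 and the young livers of 2225 CPM. Thymus rose by 0.72, skeletal muscle by 0.38, heart by 0.35 and spleen by 0.33 on the log2 scale, with groups that overlapped and exact permutation tests at adjusted p of 0.00128, 0.00256, 0.00162 and 0.00862. With the left-out spleen library of week 104 the spleen change was 0.19 and did not pass, nor did it without replicate 2 of both sexes, at 0.29. In testis and uterus a test on the difference of medians, 1.42 and 1.16, did not pass either. Brain stayed within its spread, with 4.15, 5.01 and 6.72% at week 2 and 4.32, 5.25 and 6.65% at week 104 and a log2 change of 0.01 (exact permutation test, adjusted p = 0.906). Adrenal gland moved from a mean of 11.3% over 15.3% and 16.0% at weeks 6 and 21 back to 12.5%, and its change of 0.18 from week 2 to week 104 missed the threshold (exact permutation test, adjusted p = 0.0606).

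**Figure D3:**
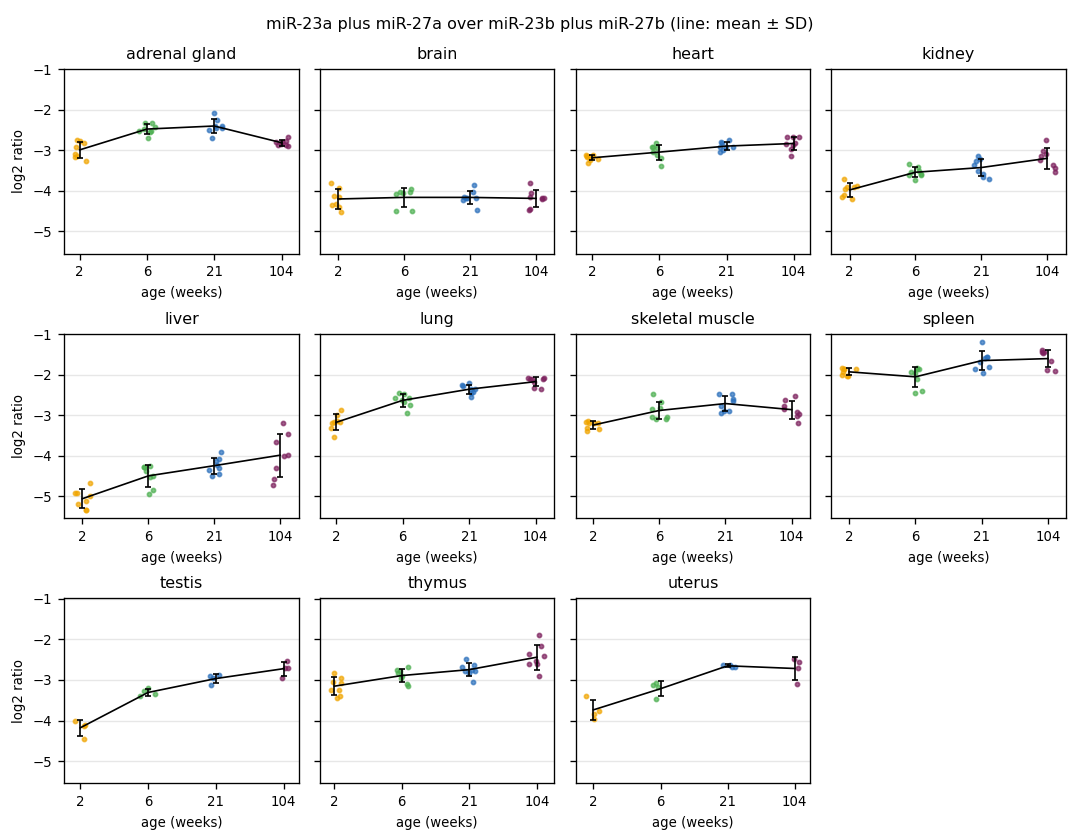
Log2 ratio of miR-23a-3p plus miR-27a-3p to miR-23b-3p plus miR-27b-3p in each library, by age in weeks (4 ages at equal spacing), with 1 panel per organ and a line through the means ± SD. The ratio climbed from week 2 to week 104 in testis, liver, uterus, lung and kidney by 0.78 to 1.46, and was level in brain.

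The leukocyte miRNAs moved in the same direction in many of these organs. Their median sum was higher at week 104 than at week 2 in 9 of 11 organs, for instance 1824 against 537 CPM in kidney, 6600 against 3270 CPM in lung and 4280 against 1828 CPM in heart. In thymus it was lower, 25042 against 44500 CPM, and in testis 1060 against 1359 CPM, and both organs had a higher share of the a cluster with age. Over the 44 groups the log2 ratio of the clusters had an r of -0.53 with the hepatocyte sum, 0.49 with the leukocyte sum, -0.43 with the neuron sum and 0.37 with the sum of smooth muscle and stroma, and the other 7 lists lay between -0.21 and 0.29. The part of these cells in the ratio was not tested.

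Both seed families took part in the rise. miR-23a-3p over miR-23b-3p rose in 10 organs, with the adrenal gland at -0.10, and miR-27a-3p over miR-27b-3p in 9. In spleen, lung, thymus, testis and uterus miR-23a-3p was on average the larger of both miR-23 copies at week 104. For example, it held 65.8 ± 2.7% in spleen (SD, n = 7) and 55.5 ± 4.1% in testis (SD, n = 4), against 52.4 and 30.3% at week 2. In heart both copies were about equal at week 104, with a mean log2 ratio of 0.007 ± 0.155 (SD, n = 8). miR-27a-3p reached 18.2 ± 2.4% of both miR-27 copies in spleen (SD, n = 7) and 13.4 ± 0.96% in lung (SD, n = 8) and stayed the lesser copy in all 11 organs. The ratio of the miR-24 opposite strands rose in 5 organs (kidney, liver, lung, testis and thymus), with the steepest change again in testis, 2.21 on the log2 scale.

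Within the clusters fewer ratios moved, and not in 1 direction. miR-27a-3p over miR-23a-3p rose in spleen by 0.34 and fell by 0.36 in thymus, by 0.23 in brain and by 0.17 in skeletal muscle. miR-27b-3p over miR-23b-3p rose by 0.74 in spleen and by 0.23 in heart and fell by 0.43 in thymus and by 0.31 in adrenal gland, all on the log2 scale.

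For single miRNAs, the change with age depended on the scaling between libraries. With TMM, 40 of the 55 combinations of member and organ (72.7%) were called from week 2 to week 104, all higher at week 104, where 44.7% of all miRNAs were called, 18.8% higher and 25.9% lower. With total counts 15 were called higher and 4 lower, miR-23b-3p in testis and uterus and miR-27b-3p in liver and testis. The scalings differed by between -1.59 and 0.30 on the log2 scale over the 11 organs, with the widest gap in testis. The median change of the 5 members lay above the median of all miRNAs in 11 of 11 organs under either scaling, with a middle organ value of 1.00 against -0.13 with TMM and 0.43 against -0.36 with total counts.

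The a-cluster members were higher at week 104 in all 11 organs under both scalings. miR-23a-3p was called in 11 organs with TMM, with a median log2 change of 1.16, and in 4 with total counts, with a median of 0.53. miR-27a-3p was called in 11 and in 4 organs, with medians of 1.04 and 0.51. Called under both scalings were brain, lung and thymus for both miRNAs, heart for miR-23a-3p and spleen for miR-27a-3p. In lung, miR-27a-3p had a lowest, median and highest level of 2240, 2681 and 3250 CPM at week 2 and of 3901, 4828 and 6085 CPM at week 104, so that the groups did not overlap. The largest TMM change of either miRNA was in testis, 1.82 (SE 0.18) for miR-23a-3p and 1.77 (SE 0.17) for miR-27a-3p, with edgeR adjusted p of 1.92e-07 and 1.03e-07. On the scale of total counts these were 0.21 and 0.20 and were not called. The 4 young testes had 505, 415, 582 and 558 CPM of miR-23a-3p and the 4 old ones 597, 687, 482 and 622 CPM, which overlap.

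The b-cluster members had no common direction. miR-23b-3p was called higher in 4 organs with TMM (adrenal gland, brain, skeletal muscle and thymus), and its median log2 change over organs was 0.31 with TMM and -0.35 with total counts. miR-27b-3p was called higher in 5 (adrenal gland, brain, heart, skeletal muscle and spleen), with medians of 0.52 and -0.06. Only brain held a call of miR-27b-3p under both scalings, 1.11 (SE 0.099) with TMM and 0.69 with total counts, and only thymus one of miR-23b-3p, 0.98 and 1.27. In brain miR-23b-3p changed by 0.98 (SE 0.074, edgeR adjusted p = 4.31e-12) with TMM, and by 0.56 with total counts, under 1.5-fold. In testis the levels of miR-27b-3p fell with total counts, from 22306, 23862, 24540 and 24140 CPM at week 2 to 10013, 10492, 7232 and 12421 CPM at week 104, with no overlap, while TMM gave a change of 0.34 that was not called.

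miR-24-3p was called higher in 9 organs with TMM, all but liver and spleen, with a median log2 change of 1.20, against 4 calls and a median of 0.43 with total counts. Adrenal gland, brain, thymus and uterus were called under both. Thymus had the largest TMM change, 1.75 (SE 0.14, edgeR adjusted p = 8.57e-13), and 2.06 with total counts. Its levels in thymus rose from 424, 471 and 576 CPM (lowest, median and highest at week 2) to 1359, 2091 and 2543 CPM at week 104, with no overlap. In the same thymus libraries the thymocyte miRNAs went from a median of 416380 to 71096 CPM, the endothelial miRNAs from 3844 to 20718 CPM and the red cell miRNAs from 1099 to 15147 CPM, and the part of these cell types in the thymus changes was not tested.

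**Figure D4:**
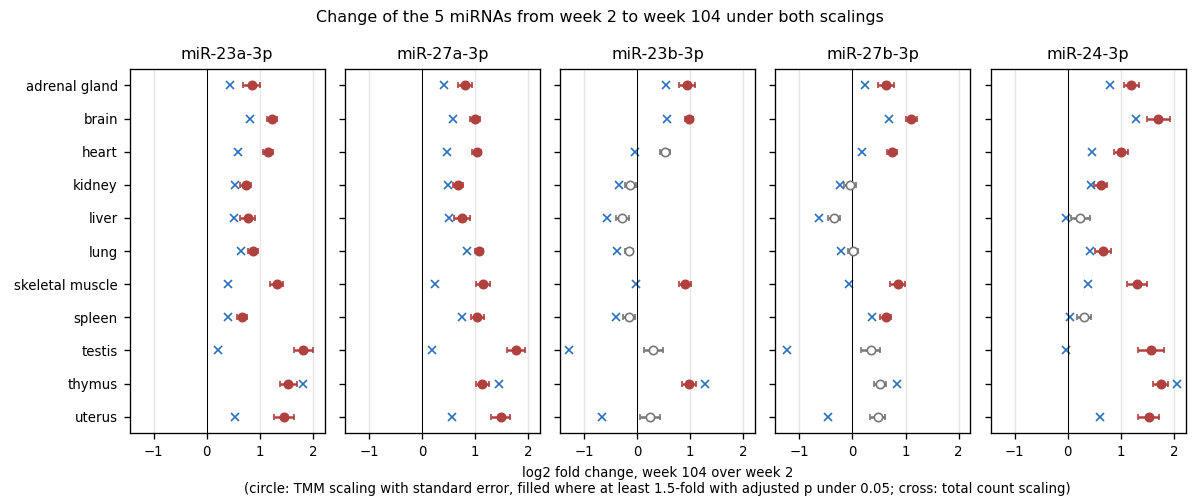
Log2 change of each member from week 2 to week 104 in each organ, with TMM scaling as circles with the standard error, filled where called, and with total counts as crosses. Circles and crosses of miR-23a-3p and miR-27a-3p lie above 0 in all 11 organs, and those of miR-23b-3p and miR-27b-3p lie on both sides of 0, with the widest gap between the scalings in testis.

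Between neighbouring ages, most calls fell in the first step, from week 2 to week 6, which shares its week 2 libraries with the comparison above. In that step 24 combinations were called higher and 4 lower of 55, where 30.6% of all miRNAs were called, 12% higher and 18.6% lower, and total counts gave 6 higher and 5 lower. Brain was called higher for all 5 members, for example miR-24-3p by 1.23 (SE 0.22, edgeR adjusted p = 3.66e-05). The 4 falls were all in testis. They were by 1.40 for miR-27b-3p and 1.06 for miR-23b-3p on the log2 scale, and by 0.67 and 0.62 for miR-24-3p and miR-27a-3p. In the study the week 6 testis libraries were dominated by piRNA, unlike those of week 2. The part of this difference in the falls was not tested. In testis the 11 miRNAs of an X-linked germ cell cluster went from a median sum of 12257 CPM at week 2 to 69360 at week 6, 52847 at week 21 and 1157 CPM at week 104, and the part of the germ cells in the testis changes was not tested.

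From week 6 to week 21 only 3 combinations were called, all higher, where 12.9% of all miRNAs were called, 5.28% higher and 7.62% lower. These were miR-27a-3p in testis (0.63) and miR-24-3p (1.07) and miR-23a-3p (0.70) in thymus. From week 21 to week 104, 9 were called, all higher, where 13.8% of all miRNAs were called, 6.3% higher and 7.45% lower. These were all 5 members in testis and miR-23a-3p and miR-24-3p in thymus and uterus. The testis changes ran from 1.31 for miR-23b-3p to 2.04 for miR-24-3p with TMM, and total counts gave 5 calls, 3 of them among the 9. In testis total counts moved the changes of this step by -1.30 on the log2 scale, about the size of the smallest of them. The size of the testis rises thus depends on the scaling. These rises also cross from testis libraries dominated by piRNA at week 21 to week 104 libraries that were not. The part of this difference in the rises was not tested.

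Some age changes of the members also differed between organs, though no more often than those of other miRNAs. When the change from week 2 to week 104 in 1 organ was set against the mean change of the other organs (edgeR with TMM, 1 fit over all organs), 15 of 55 combinations were called, 9 higher and 6 lower, which is 27.3%, where 27.4% of all miRNAs were called, 15.3% higher and 12.2% lower. With total counts 16 were called, and 7 were called in the same direction under both scalings. These were miR-23b-3p, miR-27b-3p and miR-24-3p in brain and miR-23b-3p in adrenal gland, with larger changes than elsewhere, and miR-27b-3p and miR-24-3p in liver and miR-24-3p in spleen, with smaller ones. In testis the direction turned with the scaling, from 0.88 with TMM to -0.46 with total counts for miR-23a-3p, from 0.88 to -0.44 for miR-27a-3p and from 0.66 to -0.67 for miR-24-3p.

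No member was called between female and male rats. Of 45 combinations of member and organ in the 9 organs present in both sexes, 0 were called by edgeR and 0 by DESeq2, where 0.812% of all miRNAs were called, and 5 had an unadjusted p under 0.05 in edgeR. One of these, miR-27b-3p in liver, was higher in females, with means of 33373 CPM in females and 25997 CPM in males over all ages. Its log2 difference was 0.34 (SE 0.076), under 1.5-fold, with an edgeR adjusted p of 0.0124.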

How the data were processed

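Small RNA libraries of 320 rat organ samples were used as read counts per miRNA. Per the submitters' processing notes the authors used fastp 0.23.2 and Bowtie 1.3.1. They trimmed and length-filtered the reads, aligned them to miRBase with fewer than 2 mismatches, counted them and dropped miRNAs with a low mean count. The deposited values are raw counts without normalization, for 604 listed and 12 candidate miRNAs. How reads that fit several miRNAs were counted is not given in the sources used here.

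Groups of organ, sex and age came from the labels, and all but the 2 libraries that the study removed were used. CPM was calculated from column totals. Age was compared in 1 fit per organ and organ pairs in 1 fit per age, with edgeR 4.0.16 (quasi-likelihood, TMM) over all miRNAs and Benjamini-Hochberg adjustment per contrast, at an adjusted p of 0.05 and 1.5-fold. Ratios used log2 with 1 CPM added and two-sided exact permutation tests, adjusted over all tests of a kind. R 4.3.3, Python 3.11.15, pandas 2.3.3, NumPy 2.4.6 and SciPy 1.17.1 were used, and the scripts were tested on simulated data.

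The members and lists were chosen with earlier results of these data known. Besides the members, the other strands of their hairpins, miRNAs with the same seed, the 3 miRNAs most like each member over 44 groups, and per member the organ with the largest called change with age were named. Alternatives were total counts only, DESeq2 1.42.0, a filter that kept miRNAs with a mean count of 10 or more, the inclusion of both removed libraries, the lane as a covariate, a replicate block, leaving out each replicate or the libraries that stand apart, other fold limits, and for ratios pseudocounts of 0.1 and 10 CPM and medians. The organs of a rat share that rat, but no source used here says that equal replicate numbers name the same rat. Deviations from the group means had a median r of 0.0044 over 1422 library pairs with equal numbers and -0.0057 over 4266 with different numbers, so the numbers were not taken to pair the samples. No 2 columns were identical, and the 480 pairs of replicates differed by at least 12.7 in chi-square per degree of freedom. p-values rest on 4 rats per organ, sex and age, and depth limits the opposite strands more than the members.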

Additional observations from a re-analysis of the deposited data

Results flagged for a closer look

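In 17 values of a member, 1 library lay far from the other libraries of its organ and age, of 264 groups examined, and chance alone flags about 1 in 20 groups. The number flagged is thus close to that rate. The 17 values fall in 11 libraries and are not independent of each other. Replicate 1 of the male adrenal gland at week 21 held 181 CPM of miR-23a-3p, 356 CPM of miR-27a-3p, 215 CPM of miR-23b-3p and 2072 CPM of miR-27b-3p, and the other 7 libraries of that age held at least 723, 978, 797 and 10261 CPM. Its total was 4773099 counts. Its endothelial sum of 5636 CPM and leukocyte sum of 272 CPM were also below those of the other 7, which began at 7125 and 885 CPM. So were its thymocyte sum, 2203 CPM against at least 5537 CPM, and its germ cell sum, 1.26 CPM against at least 1.60 CPM. Its red cell, stroma and epithelium sums, 3826, 44510 and 61.0 CPM, were above theirs. The striated muscle, neuron, hepatocyte and pancreas sums lay within the range of the other 7. The part of these cell types in its low values was not tested.

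Replicate 3 of the male thymus at week 104 was low in miR-23a-3p (712 CPM), miR-27a-3p (1262 CPM) and miR-23b-3p (461 CPM). Replicate 1 of the male kidney at week 104 was low in miR-23b-3p (769 CPM) and miR-27b-3p (8651 CPM). In week 6 thymus, male replicate 4 was low in miR-23a-3p (215 CPM) and female replicate 4 in miR-24-3p (344 CPM). miR-24-3p was high in replicate 2 of the female brain at week 21, 6444 CPM against 1249 to 2226 CPM in the other 7, and low in replicate 4 of the female spleen at week 6 (871 CPM). miR-23b-3p was low in replicate 2 of the female lung at week 6 (1658 CPM) and high in replicate 3 of the male skeletal muscle (1702 CPM) and of the female spleen (1187 CPM) at week 104. miR-27a-3p was low in replicate 4 of the female heart at week 104 (2429 CPM).

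For 15 combinations the change from week 2 to week 104 differed from the mean change of the other organs, by a test of that difference (edgeR with TMM). These are 27.3% of the 55 combinations, and 27.4% of all miRNAs were called in the same test, so the members were called no more often than other miRNAs, and DESeq2 called 9. The difference was larger in testis for miR-23a-3p (by 0.88 on the log2 scale), miR-27a-3p (0.88) and miR-24-3p (0.66), in brain for miR-27b-3p (0.81), miR-24-3p (0.77) and miR-23b-3p (0.74), in skeletal muscle for miR-23b-3p (0.77) and miR-27b-3p (0.62), and in adrenal gland for miR-23b-3p (0.87). The difference was negative in spleen for miR-24-3p (-0.95), miR-23b-3p (-0.68) and miR-23a-3p (-0.60), in liver for miR-24-3p (-0.77) and miR-27b-3p (-0.73), and in lung for miR-23b-3p (-0.67). With total counts the testis differences turned to -0.46, -0.44 and -0.67 for miR-23a-3p, miR-27a-3p and miR-24-3p, and those in skeletal muscle were 0.12 for miR-23b-3p and -0.01 for miR-27b-3p.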

How the results depend on the processing

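Scaling by total counts in place of TMM gave 19 calls against 40 from week 2 to week 104, 11 against 28 from week 2 to week 6 and 5 against 9 from week 21 to week 104, of which 14, 10 and 3 were called in the same direction under both, and the named changes of miR-23a-3p and miR-27a-3p in testis (0.21 and 0.20) and of miR-23b-3p in brain (0.56) were no longer called. In organ pairs in alphabetical order the first organ was called higher 127 times and lower 80 times at week 6 and 80 and 89 times at week 104 with TMM, against 139 and 52 and 105 and 55 with total counts. A 2-fold limit gave 99 and 96 calls of organ pairs at weeks 2 and 104, 22, 4, 1 and 5 calls for weeks 104 against 2, 6 against 2, 21 against 6 and 104 against 21, and 0 for the organ differences in age change. With no fold limit these differences were 29, the calls from week 6 to 21 were 11 and those between sexes 1, and DESeq2 gave 9 organ differences in age change against 15. Leaving out each replicate gave 1 to 4 calls from week 6 to 21, the lowest without replicate 4, and 28 to 34 ratio tests with age against 41, where testis and uterus with 3 against 3 rats cannot pass. The brain ratio, which was not called, ranged from -0.078 to 0.12 without 1 replicate and was -0.039 without replicate 4 of the female brain at week 104, which was left out together with replicate 1 of the male thymus of that age.

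With the replicate block, 175, 207, 192 and 169 organ pairs and 40, 28, 2 and 8 age combinations were called, 0 between sexes and 16 organ differences in age change. In the ratios of organ pairs the block gave 564 calls of 1284 against 938 of 1320, where testis and uterus pairs have 4 differences at most and cannot pass. Without replicate 1 of the male adrenal gland at week 21, chosen after seeing the data, 191 organ pairs at week 21 and 942 ratio tests passed. Over all checks of a single named value under 1 alternative, 152 left its direction and its side of the threshold as they were, 15 lost a call and 3 turned the direction, all 3 of the brain ratio.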

Other observations

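The 2 libraries left out held other levels of the members than their groups. Replicate 3 of the male brain at week 6 had 881 CPM of miR-23a-3p and 1385 CPM of miR-27a-3p, where the 31 other brain libraries reached 712 and 912 CPM, and a log2 ratio of the a to the b cluster of -3.35 against -4.50 to -3.96 in its group. Replicate 4 of the female spleen at week 104 had 21156 CPM of miR-27b-3p, where the 31 other spleen libraries reached 17080 CPM, and a log2 ratio of -2.69 against -1.89 to -1.40 in its group.

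miR-3074, which is made from the strand opposite to Mir24-1 at the end of the b cluster, was at 10.6 ± 4.8 CPM in thymus (SD, n = 32), 5.28 ± 2.3 CPM in spleen (SD, n = 31) and 4.82 ± 2.7 CPM in testis (SD, n = 16). In the other 8 organs its mean was at most 2.09 CPM, and in liver and skeletal muscle it was at 3 counts or fewer in all 32 libraries each.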
